A study of Mus musculus with 8 samples.

Results

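The Cyp2c genes encode liver cytochrome P450 enzymes, and 10 of them, Cyp2c29, Cyp2c37, Cyp2c38, Cyp2c39, Cyp2c40, Cyp2c50, Cyp2c54, Cyp2c67, Cyp2c69 and Cyp2c70, were followed through the livers of MøFoxO1-KO mice and WT littermates. They were chosen by gene symbol as paralogs of the epoxygenase cluster on mouse chromosome 19, with earlier results of these data known. All 10 had a row among the 46517 genes of the count table. MøFoxO1-KO mice carried FoxO1 alleles flanked by loxP sites (FoxO1 loxP/loxP) together with Lyz2-Cre, which deletes FoxO1 in myeloid cells, and WT littermates carried FoxO1 loxP/loxP alone. Both groups were male C57BL/6 mice that began a NASH diet at 6 weeks of age, ate it for 25 weeks, and were 31 weeks old and fasted for 16 hours at collection. RNA-Seq of polyadenylated RNA was done on whole liver from 4 mice of each genotype, and each mouse is a replicate. Hepatocytes, the main site of Cyp2c expression, are not a target of Lyz2-Cre.

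Enzymes of this family add oxygen to lipids and drugs. Several members convert arachidonic acid to epoxyeicosatrienoic acids, signaling lipids known for dilating vessels and dampening inflammation, which soluble epoxide hydrolase then breaks down. The mouse cluster arose by repeated gene duplication, and the copies are known to differ in sex, hormone and diet responses. Cyp2c38, Cyp2c39, Cyp2c40 and Cyp2c69 are known as genes with higher levels in female than in male mouse liver, a pattern set by the rhythm of growth hormone release.

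Total counts per mouse lay between 15253218 and 18025481, and mitochondrial genes held 4.163 to 6.332% of them. Foxo1 had 328 to 467 counts in WT livers and 253 to 448 counts in MøFoxO1-KO livers (log2 fold change -0.17, standard error 0.18, edgeR adjusted P = 0.686), a difference within its error. Whole liver RNA holds the Foxo1 of every cell type, so these values do not check the deletion in myeloid cells. The labelled sex was checked: normalized counts of Ddx3y, a Y-linked gene, were between 940 and 1160 in the 8 mice, and those of Xist, which marks an inactive X chromosome, were at most 5.62. Of the hepatocyte markers Alb, Ttr, Apoa1, Tat, Cps1 and Serpina1c, all 6 were abundant in both groups, and of the 4 gut epithelium markers, Cdx2 had no count in any mouse, Vil1 and Muc2 had mean normalized counts of at most 5.54, and Fabp2 had 2780 in WT and 3287 in MøFoxO1-KO livers.

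The 10 genes lie within the cluster in the order Cyp2c29, Cyp2c38, Cyp2c39, Cyp2c67, Cyp2c40, Cyp2c69, Cyp2c37, Cyp2c54, Cyp2c50 and Cyp2c70 on GRCm38, between positions 39269405 and 40187333 of chromosome 19. Cyp2c68 sits between Cyp2c67 and Cyp2c40. The coding transcript of each gene has 9 exons. By coding sequence they form groups of close copies. Cyp2c67 and Cyp2c69 matched at 97.7% of aligned coding bases, Cyp2c37 and Cyp2c50 at 96.1%, Cyp2c50 and Cyp2c54 at 95.2%, Cyp2c38 and Cyp2c39 at 94.2%, Cyp2c40 and Cyp2c69 at 92.4%, and Cyp2c29 and Cyp2c39 at 89.5%. Cyp2c70, which makes muricholic acids in the mouse, stood apart, with 69.4% to its nearest member Cyp2c50.

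**Figure D1:**
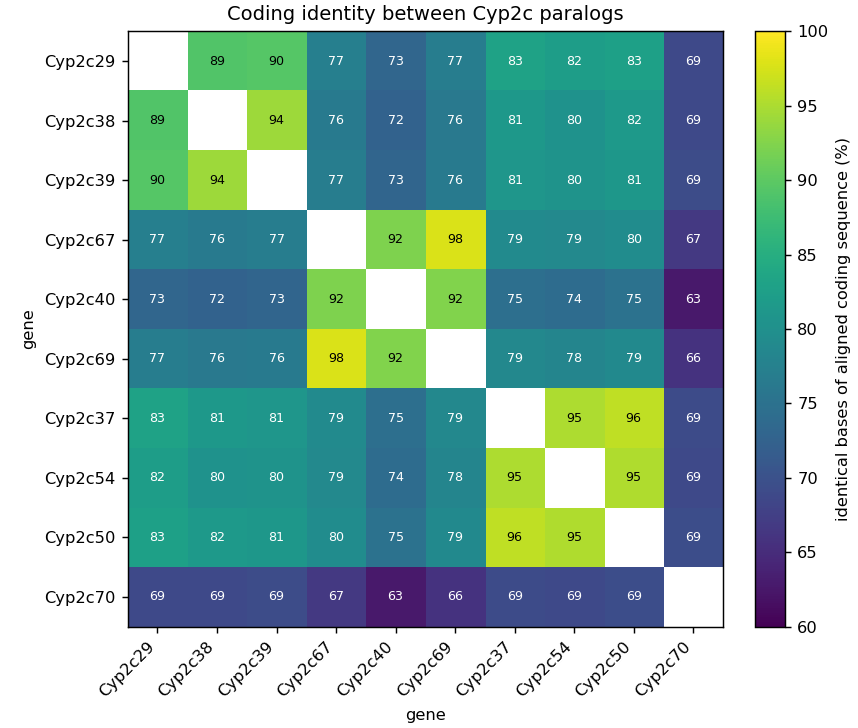
Percent of identical bases between the coding sequences of the 10 paralogs, with the genes on both axes in chromosomal order and the percentage in each cell. Blocks of close copies are Cyp2c29, Cyp2c38 and Cyp2c39, then Cyp2c67, Cyp2c40 and Cyp2c69, then Cyp2c37, Cyp2c54 and Cyp2c50, while Cyp2c70 has at most 69.4% with any other.

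Upstream sequences of 250 bases before the RefSeq start site (GRCm38.p6) were found for 9 of the 10 genes. Those of the Cyp2c29, Cyp2c38 and Cyp2c39 block and of the Cyp2c67 and Cyp2c69 pair are shown, a choice made from the values below. In the first, the log2 fold change was 0.02 for Cyp2c29 and -2.12 for Cyp2c38, and it was also negative for Cyp2c39, the closest copy of Cyp2c38. In the second, it was 0.47 for Cyp2c67 and -4.47 for Cyp2c69, the latter without a filter on low counts. Each is written 5′ to 3′ on the strand of its gene. Capitals mark the letters TGTTTAC (a forkhead motif), CAAAGTC (an HNF4A motif), AGGTCA (a nuclear receptor half-site), all searched on both strands, and TATAAA, searched on the strand of the gene. Cyp2c29 is from chr19:39286835-39287084 (plus strand), Cyp2c38 from chr19:39463076-39463325 (minus strand), Cyp2c39 from chr19:39510572-39510821 (plus strand), Cyp2c67 from chr19:39649043-39649292 (minus strand) and Cyp2c69 from chr19:39886770-39887019 (minus strand).
Cyp2c29: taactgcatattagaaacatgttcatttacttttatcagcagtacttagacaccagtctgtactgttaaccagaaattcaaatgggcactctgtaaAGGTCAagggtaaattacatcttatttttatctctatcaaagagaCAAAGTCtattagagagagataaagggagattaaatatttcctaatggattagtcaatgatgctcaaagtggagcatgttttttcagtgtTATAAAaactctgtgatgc
Cyp2c38: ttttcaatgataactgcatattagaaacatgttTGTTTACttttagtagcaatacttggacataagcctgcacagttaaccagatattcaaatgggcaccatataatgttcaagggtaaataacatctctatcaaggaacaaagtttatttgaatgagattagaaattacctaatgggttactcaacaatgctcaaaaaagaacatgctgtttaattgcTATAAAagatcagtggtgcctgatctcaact
Cyp2c39: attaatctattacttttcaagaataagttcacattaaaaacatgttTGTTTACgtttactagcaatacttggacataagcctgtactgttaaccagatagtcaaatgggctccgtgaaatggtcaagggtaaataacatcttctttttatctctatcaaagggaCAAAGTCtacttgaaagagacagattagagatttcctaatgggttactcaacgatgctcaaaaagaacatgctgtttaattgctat
Cyp2c67: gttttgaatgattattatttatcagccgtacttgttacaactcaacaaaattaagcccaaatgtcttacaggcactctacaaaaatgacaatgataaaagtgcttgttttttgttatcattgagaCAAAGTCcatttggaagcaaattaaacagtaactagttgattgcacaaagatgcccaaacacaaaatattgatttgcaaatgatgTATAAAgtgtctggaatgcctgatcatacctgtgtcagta
Cyp2c69: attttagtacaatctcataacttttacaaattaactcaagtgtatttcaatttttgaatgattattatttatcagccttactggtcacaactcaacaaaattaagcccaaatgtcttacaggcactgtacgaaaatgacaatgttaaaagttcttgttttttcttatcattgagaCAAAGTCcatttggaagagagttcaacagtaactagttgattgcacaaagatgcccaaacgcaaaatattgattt

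TGTTTAC was present in 2 of the 9 upstream sequences, those of Cyp2c38 and Cyp2c39, where it starts at positions -217 and -204 from the start site, and in 3.2% of 32851 mouse promoters of the same length. CAAAGTC was present in 7 of 9 members against 3.8% of all promoters. AGGTCA was present in 2 of 9 (Cyp2c29 and Cyp2c70) against 14.0%, TATAAA in 3 of 9 against 7.6%, and the STAT motif TTCNNNGAA, searched on both strands, in 0 of 9 against 7.0%. CAAAGTC and AGGTCA do not overlap in any of these sequences. The upstream sequences of Cyp2c38 and Cyp2c39 matched at 71.0% of bases, those of Cyp2c67 and Cyp2c69 at 62.0%, those of Cyp2c40 and Cyp2c69 at 77.5% and those of Cyp2c37 and Cyp2c50 at 84.3%. Start sites in RefSeq and in the coding transcript of GENCODE M21 differ by up to 40 bases for the members. The Cyp2c39 and Cyp2c69 sequences end before a TATAAA could be complete at the place where Cyp2c38 and Cyp2c67 have it. The percentages of matching bases and the TATAAA count therefore depend on where each start site was placed. They do not compare windows set to a shared start. These matches describe letters only, and binding was not measured.

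The clearest change among the 10 was in Cyp2c38. A gene was called when the adjusted P of edgeR's quasi-likelihood test was under 0.05 and its log2 fold change exceeded 1.5 in size. By this rule 1 of the 9 members that passed the filter on low counts was called, and it was lower, against 0.188% of all 13278 genes tested in either direction and 0.136% in the lower direction (0.0527% in the higher). Of the 9, 6 had a log2 fold change above 0 and 3 below, with a median of 0.33 (all genes, median -0.01, with 48.3% above 0). At an unadjusted P under 0.05, 2 members were lower and 2 higher, against 8.06% and 8.65% of all genes. The second lower one, Cyp2c40, did not reach the adjusted threshold. In 2 of the 10 members, Cyp2c38 and Cyp2c40, all MøFoxO1-KO mice were below all WT mice, against 4.71% of all genes, and in 0 members were all above, against 5%. Because the members were chosen with earlier results of these data known, these counts are a description and no test of the set. In whole liver RNA, fewer cells that express a gene and less RNA per cell cannot be told apart.

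Cyp2c38 is an arachidonic acid epoxygenase (ENSMUSG00000032808, chr19:39389556-39463075). Normalized counts in WT replicates 22, 23, 24 and 25 were 4424, 3815, 2313 and 2844. In MøFoxO1-KO replicates 26, 27, 28 and 29 they were 674, 591, 1010 and 800. The highest MøFoxO1-KO liver thus lay below the lowest WT liver. Mean counts were 3349 ± 949 in WT against 769 ± 182 in MøFoxO1-KO livers (SD, n = 4 each), 4.36-fold lower after loss of myeloid FoxO1. Cyp2c38 fell by 2.12 on the log2 scale (SE 0.24, adjusted P = 0.0136 in edgeR after Benjamini-Hochberg correction), the second smallest P of all genes tested. The exact two-sided permutation test gave P = 0.0286, the smallest that 4 mice against 4 allow. Leaving out each mouse in turn kept the call, with log2 fold changes from -2.27 to -1.96 and adjusted P up to 0.0493 (edgeR).

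Cyp2c40 was far less abundant. This enzyme, known to hydroxylate arachidonic acid, was read 32, 35, 33 and 119 times in WT replicates 22 to 25, and 3, 6, 14 and 9 times in MøFoxO1-KO replicates 26 to 29. WT replicate 25 stood above the rest of its group, and no MøFoxO1-KO liver reached a WT liver. Mean normalized counts were 53.3 ± 43.5 against 8.35 ± 4.42 (SD, n = 4 each), and the log2 fold change was -2.65 ± 0.60 (SE; edgeR, adjusted P = 0.102; exact permutation test, P = 0.0286). Cyp2c40 passed the filter through its WT counts. DESeq2 called it lower (adjusted P = 0.00124), as did edgeR without the filter on low counts (adjusted P = 0.0262). DESeq2 called 2 of the members, Cyp2c38 and Cyp2c40, against 1.09% of all genes (0.565% in the lower direction). The unfiltered edgeR fit called 0.507% of 23665 genes. Leaving out WT replicate 25 brought Cyp2c40 to -1.91 (edgeR, adjusted P = 0.135), and over all alternatives its adjusted P ran from 0.00124 (DESeq2) to 0.314 (edgeR without MøFoxO1-KO replicate 27).

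Cyp2c69, its neighbor, was measured on very few reads. WT replicates 22 to 25 had 3, 7, 16 and 100 counts, and MøFoxO1-KO replicates 26 to 29 had 2, 0, 3 and 0. The WT sum was held mainly by replicate 25. The WT count of 3 in replicate 22 equaled that of MøFoxO1-KO replicate 28. The gene failed the filter on low counts, and without that filter its log2 fold change was -4.47 ± 1.08 (SE; edgeR, adjusted P = 0.0658; exact permutation test, P = 0.0571). Without WT replicate 25 it was -2.58 (edgeR, adjusted P = 0.281). Without WT replicates 22, 23 or 24 it passed the threshold, with adjusted P of 0.0248, 0.0297 and 0.0470 (edgeR).

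The counts of Cyp2c40, Cyp2c67 and Cyp2c69 are less certain than those of the other members, because the copies share sequence. Of the windows of 100 bases in each transcript, 44.1% for Cyp2c40, 36.3% for Cyp2c69 and 23.7% for Cyp2c67 occurred in the transcript of another gene, against 9.4% for Cyp2c50, 7.6% for Cyp2c54, 4.7% for Cyp2c37 and 0% for Cyp2c29, Cyp2c38, Cyp2c39 and Cyp2c70. These shares depend on window length. At 50 bases they were 72.1, 54.8 and 52.8% for Cyp2c40, Cyp2c69 and Cyp2c67. For Cyp2c50, Cyp2c37 and Cyp2c54 they were 30.7, 30.1 and 25.7%. For Cyp2c39, Cyp2c38, Cyp2c29 and Cyp2c70 they were 12.0, 7.4, 2.1 and 0%. How reads that match several genes were treated is not given in the sources used here. Summed over Cyp2c40, Cyp2c67, Cyp2c68 and Cyp2c69, normalized counts were 6222 ± 1463 in WT against 6796 ± 1058 in MøFoxO1-KO livers (SD, n = 4 each), with P = 0.571 in an exact permutation test. Cyp2c67 and Cyp2c68 made up nearly all of the sum, with WT means of 3337 and 2801 against 53.3 for Cyp2c40 and 31.0 for Cyp2c69. The sum therefore cannot show whether Cyp2c40 or Cyp2c69 differed.

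Cyp2c39, a retinoic acid hydroxylase and the closest copy of Cyp2c38, split the mice of each group. Normalized counts were 4873, 6360, 42.5 and 128 in WT replicates 22, 23, 24 and 25. They were 37.4, 21.5, 33.2 and 931 in MøFoxO1-KO replicates 26, 27, 28 and 29. WT replicates 22 and 23 were thus high, and WT replicates 24 and 25 were near the level of 3 MøFoxO1-KO livers, while MøFoxO1-KO replicate 29 lay above WT replicates 24 and 25. Means were 2851 ± 3251 against 256 ± 450 (SD, n = 4 each). The log2 fold change was -3.48, larger in size than that of Cyp2c38, but its SE was 1.61 (edgeR, adjusted P = 0.317; exact permutation test, P = 0.171). It was -6.52 without MøFoxO1-KO replicate 29, and no mouse left out brought it past the threshold.

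**Figure D2:**
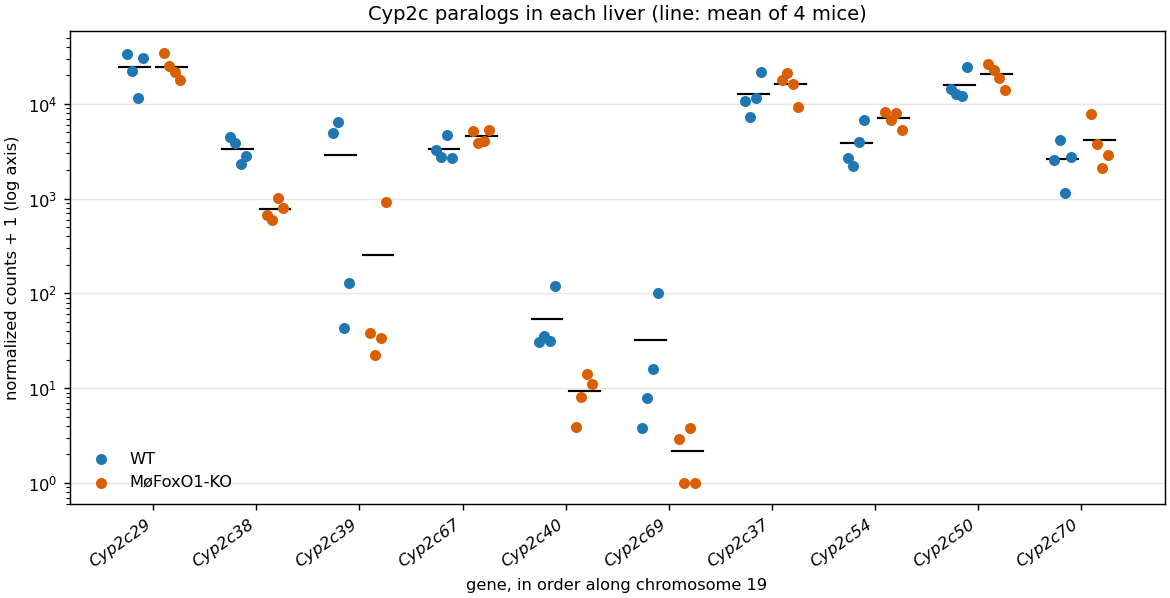
Normalized counts plus 1 on a log axis for each paralog in chromosomal order, with 1 point per mouse (blue, WT; orange, MøFoxO1-KO) and a line at the mean of 4 mice. The groups separate for Cyp2c38 and Cyp2c40, whereas Cyp2c39 spreads from 21.5 to 6360 and the other genes overlap.

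The remaining members did not pass the test. Cyp2c29, an epoxygenase that was the most abundant member in WT livers, had normalized counts of 33685, 22177, 11451 and 30542 in WT replicates 22 to 25 and 34588, 25127, 21652 and 17674 in MøFoxO1-KO replicates 26 to 29. Both groups covered nearly the same range. Means were 24464 ± 9942 against 24760 ± 7225 (SD, n = 4 each), and the log2 fold change was 0.02 ± 0.32 (SE; edgeR, adjusted P = 0.985). With 1 mouse left out the value lay between -0.22 and 0.21, and it turned negative without WT replicate 23, WT replicate 24 or MøFoxO1-KO replicate 26.

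Cyp2c54, an epoxygenase of the Cyp2c37 block, had the largest positive value. WT replicates 22 to 25 had 2668, 2205, 3935 and 6730 normalized counts, and MøFoxO1-KO replicates 26 to 29 had 8268, 6688, 8093 and 5322. All but WT replicate 25 of the WT livers lay below every MøFoxO1-KO liver. Means were 3884 ± 2033 against 7093 ± 1376 (SD, n = 4 each), 1.83-fold higher, and the log2 fold change was 0.87 ± 0.32 (SE; edgeR, unadjusted P = 0.0214, adjusted P = 0.225; exact permutation test, P = 0.0857). Its close copies were nearer to no difference. Cyp2c37 had 12835 ± 6152 normalized counts in WT against 16140 ± 5095 in MøFoxO1-KO livers (SD, n = 4 each), a log2 fold change of 0.33 ± 0.34 (SE; edgeR, adjusted P = 0.666). Cyp2c50 had 15912 ± 5893 against 20593 ± 5275 (SD, n = 4 each), a log2 fold change of 0.37 ± 0.26 (SE; edgeR, adjusted P = 0.520). For each gene of this block, replicate 25 was the highest WT liver and replicate 29 the lowest MøFoxO1-KO liver. The 3 mice with the most Cyp2c39, WT replicates 22 and 23 and MøFoxO1-KO replicate 29, were also the 3 with the least Cyp2c37.

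Cyp2c67, the near-identical copy of Cyp2c69, had 3259, 2737, 4662 and 2689 normalized counts in WT replicates 22 to 25 and 5208, 3851, 4067 and 5356 in MøFoxO1-KO replicates 26 to 29. Only WT replicate 24 reached into the MøFoxO1-KO range. The log2 fold change was 0.47 ± 0.20 (SE; edgeR, unadjusted P = 0.0401, adjusted P = 0.274; exact permutation test, P = 0.114). Cyp2c70 had 2647 ± 1225 normalized counts in WT against 4154 ± 2586 in MøFoxO1-KO livers (SD, n = 4 each), and the log2 fold change was 0.65 ± 0.44 (SE; edgeR, adjusted P = 0.502). MøFoxO1-KO replicate 26 alone had 7900 counts of Cyp2c70, and leaving it out brought the value to 0.13, whereas it was 0.95 without WT replicate 23.

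Negative and positive point estimates came in runs along the cluster, but only that of Cyp2c38 was called, and the pattern was not tested. Cyp2c38 and Cyp2c39 lie between Cyp2c29, at a log2 fold change of 0.02 (SE 0.32), and Cyp2c67, at 0.47 (SE 0.20). The sign for Cyp2c29 changed with some single mice left out. Cyp2c40 and Cyp2c69 follow after Cyp2c68, which was at -0.37 (SE 0.28). Among the negative values, SEs were 1.61 for Cyp2c39, 0.60 for Cyp2c40 and 1.08 for Cyp2c69 (fit without the filter on low counts). Cyp2c40 and Cyp2c69 share sequence, so their values may not be independent. The 4 genes at the far end, Cyp2c37, Cyp2c54, Cyp2c50 and Cyp2c70, had values from 0.33 to 0.87, with SE from 0.26 to 0.44.

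**Figure D3:**
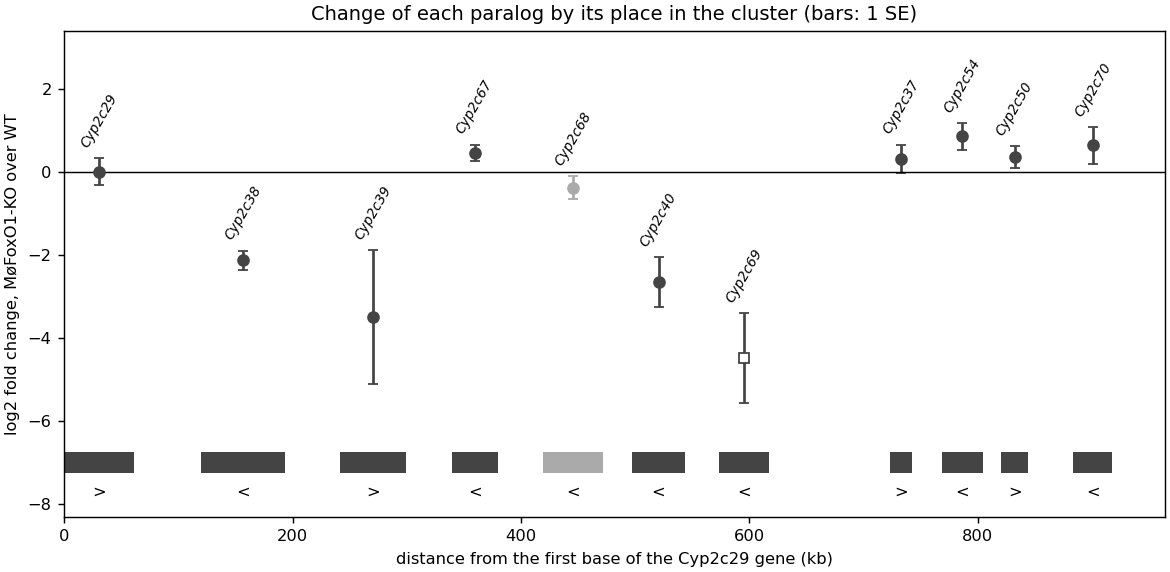
Log2 fold change of each gene, MøFoxO1-KO over WT, with bars of 1 standard error, against its distance in kb from the first base of Cyp2c29; boxes below mark each gene and the arrowhead its strand. Cyp2c38, Cyp2c39, Cyp2c40 and Cyp2c69 (open square, fit without the filter on low counts) lie below 0 at -2.12 to -4.47, and Cyp2c68, in gray, is not among the 10.

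Levels were compared between genes per exon length, as RPKM (reads divided by exon length and scaled library size). In WT livers, Cyp2c29, Cyp2c37 and Cyp2c50 led with means of 487, 429 and 332 RPKM, and their ranges overlapped. Below them came Cyp2c54, Cyp2c67, Cyp2c39, Cyp2c70 and Cyp2c38, with means of 134, 117, 95.6, 81.4 and 71.1 RPKM, each overlapping the next in this order. Cyp2c40 (1.60 RPKM) and Cyp2c69 (1.07 RPKM) were far below. In MøFoxO1-KO livers the same 3 genes led, and Cyp2c38 (16.3 RPKM) and Cyp2c39 (8.58 RPKM) lay below Cyp2c54, Cyp2c67 and Cyp2c70, with ranges apart from those of Cyp2c70. The lowest MøFoxO1-KO liver for Cyp2c70 had 64.2 RPKM and the highest for Cyp2c38 had 21.4 RPKM.

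Summed over the 10 members, the level was 1750 ± 461 RPKM in WT against 2022 ± 466 RPKM in MøFoxO1-KO livers (SD, n = 4 each), with overlap between the genotypes. The 10 genes together held 0.321 to 0.584% of all counts of a mouse. Cyp2c38 made up 2.60 to 5.25% of the summed level in WT livers and 0.559 to 1.16% in MøFoxO1-KO livers. Cyp2c39 held 8.72 and 13.8% in WT replicates 22 and 23, and between 0.0330 and 2.13% in the other 6 mice. Cyp2c54 held 7.65 ± 3.18% in WT against 12.3 ± 1.94% in MøFoxO1-KO livers (SD, n = 4 each). Cyp2c29, Cyp2c37 and Cyp2c50 supplied most of the sum in every mouse.

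**Figure D4:**
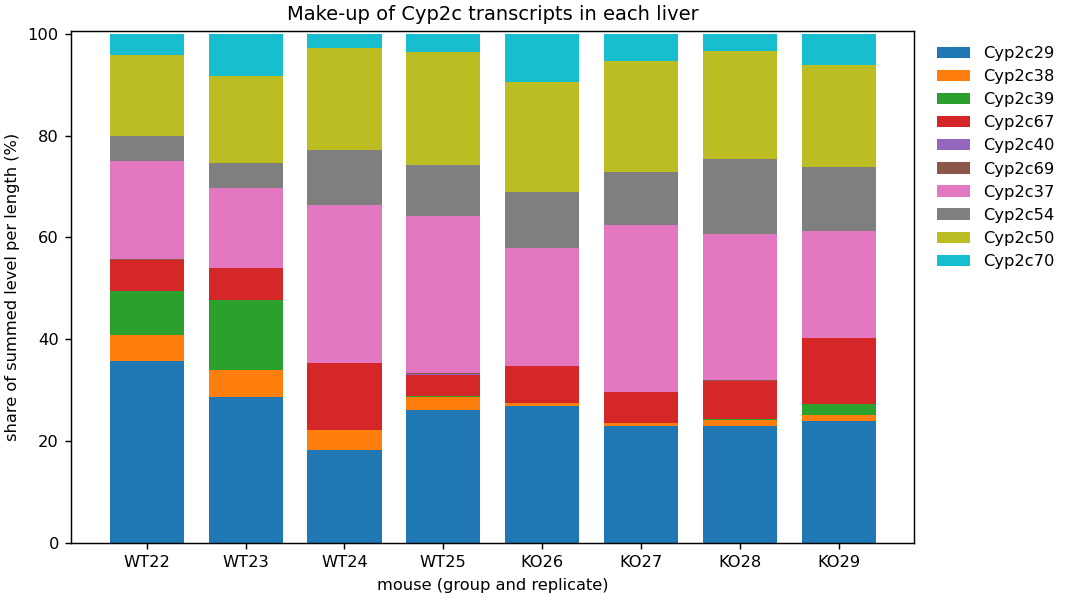
Share of each paralog, in percent, of the summed level per length of the 10 paralogs in each mouse (replicates 22 to 25, WT; 26 to 29, MøFoxO1-KO). Cyp2c29, Cyp2c37 and Cyp2c50 fill most of each bar, the Cyp2c38 band is narrower in all MøFoxO1-KO mice, and the Cyp2c39 band is wide only in WT replicates 22 and 23.

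Within each mouse, the ratio of a gene to its nearest copy is nearly free of library size when both have many counts. At few counts it also depends on library size and on the pseudocount. Log2 ratios of normalized counts plus 1 were compared for 7 pairs by exact two-sided permutation tests, and P values were adjusted over the 7 pairs. The log2 ratio of Cyp2c67 to Cyp2c69 was 9.74, 8.44, 8.21 and 4.74 in WT replicates 22 to 25 and 10.8, 11.9, 10.1 and 12.4 in MøFoxO1-KO replicates 26 to 29. The groups did not overlap, with a difference of 3.50 (exact permutation test, P = 0.0286, adjusted P = 0.2), so the adjusted value missed the threshold. This ratio rests on the low counts of Cyp2c69, which had 0 counts in 2 MøFoxO1-KO livers, and at a pseudocount of 10 the difference was 1.80 (exact permutation test, P = 0.0286). For Cyp2c50 over Cyp2c54 the ratio differed by -0.59 between groups (exact permutation test, P = 0.0857, adjusted P = 0.3). For Cyp2c38 over Cyp2c39 it was -0.14 and -0.74 in WT replicates 22 and 23, 5.73 and 4.46 in WT replicates 24 and 25, 4.14 to 4.88 in MøFoxO1-KO replicates 26 to 28 and -0.22 in replicate 29. These close copies therefore did not keep a fixed proportion between mice of 1 genotype. The difference was 1.05 (exact permutation test, P = 0.771, adjusted P = 0.9). Differences for Cyp2c29 over Cyp2c39, Cyp2c40 over Cyp2c69, Cyp2c50 over Cyp2c70 and Cyp2c37 over Cyp2c50 were 3.24, 0.59, -0.21 and -0.02, with adjusted P between 0.399 and 0.943 (exact permutation tests). In Cyp2c37 over Cyp2c50 the mice also varied little, with SDs of 0.33 in WT and 0.25 in MøFoxO1-KO livers (n = 4 each).

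**Figure D5:**
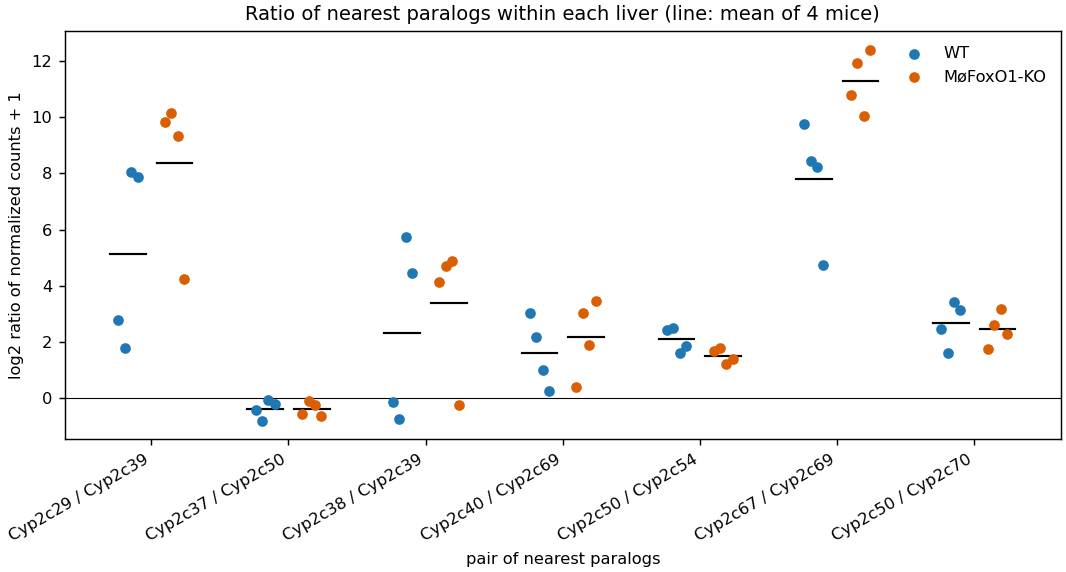
Log2 ratio of normalized counts plus 1 between 7 pairs of nearest paralogs, with 1 point per mouse (blue, WT; orange, MøFoxO1-KO) and a line at the mean of 4 mice. Cyp2c67 over Cyp2c69 separates the groups, at 4.74 to 9.74 against 10.1 to 12.4, and in Cyp2c38 over Cyp2c39 mice of both genotypes lie at both ends.

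The other Cyp2c genes of the table gave no call. Cyp2c68, next to Cyp2c67, had 2801 ± 1152 normalized counts in WT against 2167 ± 543 in MøFoxO1-KO livers (SD, n = 4 each), at a log2 fold change of -0.37 (edgeR, adjusted P = 0.541). Cyp2c23, an epoxygenase also known as Cyp2c44 that lies outside the cluster on the same chromosome, had 4064 ± 454 against 4875 ± 554 (SD, n = 4 each), a log2 fold change of 0.26 (edgeR, adjusted P = 0.359). Cyp2c55, known from the intestine, had a log2 fold change of -0.22 (edgeR, adjusted P = 0.907). Counts summed over 4 mice were 13 in WT and 30 in MøFoxO1-KO for Cyp2c53-ps, 1 and 1 for Cyp2c65, and 4 and 0 for Cyp2c66.

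Genes that work with the Cyp2c enzymes were not called, where 0.188% of all genes tested were called in either direction. At that share a short list seldom holds a called gene, so these counts do not show a lack of change. Among electron donors and heme genes, 0 of 7 were called, with Cyb5b at -0.61 and Alas1, the first enzyme of heme synthesis, at -0.45 (log2 fold changes, edgeR adjusted P = 0.178 and 0.259). Cyb5b and Alas1 were the 2 of the 7 that were lower at an unadjusted P under 0.05 in edgeR, against 8.06% of all genes. For Alas1 all MøFoxO1-KO livers lay below all WT livers, as in 4.71% of all genes. Among Cyp2j epoxygenases, 4 of 7 passed the filter and 0 were called, with Cyp2j9 at 0.45 and Cyp2j6 at 0.17. Of the epoxide hydrolases, 2 of 4 passed the filter. Ephx2, which hydrolyzes epoxyeicosatrienoic acids, had 16700 ± 1234 normalized counts in WT against 22210 ± 1961 in MøFoxO1-KO livers (SD, n = 4 each). All MøFoxO1-KO livers lay above all WT livers, as in 5% of all genes, but the log2 fold change of 0.41 did not pass the test (edgeR, adjusted P = 0.169). Ephx1 was at -0.08. Of 12 genes that supply arachidonate, 0 were called, with Pla2g4a at 0.69 and Lpcat3 at -0.26.

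Among 22 transcription factors of P450 genes, 5 had positive and 17 negative values, where 48.3% of all genes had positive ones. Of these factors 0 were called, where 0.188% of all genes tested were called in either direction. Ahr was at -0.47 and Ppargc1a at -0.53 (log2 fold changes, edgeR adjusted P = 0.190 and 0.243). Of 6 targets of the xenobiotic receptors CAR and PXR, all 6 had negative values with a median of -0.54 and 0 were called, with Gsta1 at -1.47 and Gstm1 at -0.56 (edgeR, adjusted P = 0.150 and 0.158). At an unadjusted P under 0.05 in edgeR, 4 of the 6 were lower, against 8.06% of all genes. For Gstm1 all MøFoxO1-KO livers lay below all WT livers, as in 4.71% of all genes. The median of the 6 was -1.03 without MøFoxO1-KO replicate 26. Of 10 genes of the growth hormone axis, 0 were called, and the nearest to the threshold were Stat5a, at -0.79 (edgeR, adjusted P = 0.0851), and Igfals, at 0.69 (adjusted P = 0.152). Their median of -0.30 was 0.07 without WT replicate 23. Of 14 genes of bile acid synthesis and conjugation, the pathway of Cyp2c70, 1 was called higher and 1 lower, against 0.0527% and 0.136% of all genes. These were Cyp7b1, an oxysterol hydroxylase, with a log2 fold change of 2.07 (edgeR, adjusted P = 0.0370), and Cyp39a1, another oxysterol hydroxylase, with -3.47 (edgeR, adjusted P = 0.0171).

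Genes outside the family with known sex bias in liver were set beside the members, since Cyp2c38, Cyp2c39, Cyp2c40 and Cyp2c69 share that trait. Of 18 female-predominant genes, 8 passed the filter and all 8 had negative values, with a median of -1.61. Among all genes, 48.3% had values above 0. Of the 8, 2 were called lower, against 0.136% of all genes. Hao2 and Nipal1 had means of 10.5 and 7.95 normalized counts in MøFoxO1-KO livers and 379 and 26.2 in WT livers. They passed mainly through WT counts, which favors negative values. Cux2 was low in both groups, with means of 12.25 in WT and 7.28 in MøFoxO1-KO livers. Among genes left out, Prom1 and Cyp3a16 had higher MøFoxO1-KO means, Cyp3a41a and Cyp3a41b had no counts, and the others had lower means. Cyp2a4, a steroid hydroxylase, had 168 ± 70.0 normalized counts in WT against 16.1 ± 7.44 in MøFoxO1-KO livers (SD, n = 4 each), a log2 fold change of -3.35 (edgeR, adjusted P = 0.0147). Hao2, a peroxisomal oxidase, had a log2 fold change of -5.12 (edgeR, adjusted P = 0.0338). Of 12 male-predominant genes, all 12 passed the filter and had positive values, with a median of 1.40. Of the 12, 3 were called higher, against 0.0527% of all genes: Hsd3b5, a steroid reductase, with 22.8 ± 18.9 normalized counts in WT against 2291 ± 1534 in MøFoxO1-KO livers (SD, n = 4 each), Mup1, a urinary protein, with a log2 fold change of 3.10, and Cyp7b1 (edgeR, adjusted P = 0.0136, 0.0171 and 0.0370). All 8 mice carried Y-linked transcripts at like levels, as given above, and these lists were written with earlier results of the data known.

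Cell type markers were measured beside the members. The 6 hepatocyte markers all had positive values, with a median of 0.29, where 48.3% of all genes had positive ones. They summed to 977900 to 1396000 normalized counts in WT and 1183000 to 1770000 in MøFoxO1-KO livers. Of them Serpina1c was at 1.49 (log2 fold change, edgeR adjusted P = 0.0370). The 7 pericentral hepatocyte markers had a median of 0.02 and the 6 periportal ones of 0.31. Of the pericentral markers, 4 had positive and 3 negative values. Slc1a2, a glutamate transporter, was at -1.03 with all MøFoxO1-KO livers below all WT livers, as in 4.71% of all genes (edgeR, unadjusted P = 0.00215, adjusted P = 0.12). Cyp1a2 was at 0.61 with overlap between the groups (edgeR, unadjusted P = 0.0305, adjusted P = 0.250). Of 8 macrophage markers, 7 had positive values with a median over the 8 of 0.87, and sums over the 8 were 1766 to 3174 in WT and 1949 to 9018 in MøFoxO1-KO livers. In edgeR no macrophage marker had an adjusted P under 0.05. At an unadjusted P under 0.05 in edgeR, 4 were higher, against 8.65% of all genes. DESeq2 called 2, against 1.09% of all genes in either direction. The largest values were 5.175 for Marco, whose groups overlapped, and 2.078 for Timd4 (log2 fold changes, edgeR adjusted P = 0.0870 and 0.0968). The negative value was that of Lyz2, at -0.77 (edgeR, adjusted P = 0.586). Medians for the 5 endothelial, 5 stellate and 5 cholangiocyte markers were 0.24, -0.06 and -0.23. Of the stellate markers, 2 had positive and 3 negative values. Col1a1, a collagen gene, was at -1.28 with all MøFoxO1-KO livers below all WT livers (edgeR, unadjusted P = 0.0128, adjusted P = 0.193). Slc1a2, Cyp1a2, Marco, Timd4, Lyz2 and Col1a1 were chosen after their values were seen. The part of any of these in the values of Cyp2c38 and the other members was not tested.

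By correlation of log2 normalized counts over the 8 mice, the tested genes outside the family most like Cyp2c39 were Slc40a1, Rtcb and Vegfc, with r of 0.948, 0.938 and 0.938. Those most like Cyp2c54 were Cabyr, Zfp219 and Zbtb48, with r of 0.967, 0.965 and 0.960. These are the highest of all genes tested for each, given as a description, and the points share the same 8 libraries.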

How the data were processed

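Whole liver RNA of 8 mice (n = 4 per genotype) was measured. The authors deposited 1 table of raw read counts per gene for 46517 Ensembl genes on mm10, without normalization, made with STAR and featureCounts according to the submitters' processing notes (versions and strand setting not given in the sources used here). Gene symbols came from GENCODE M21, which matched 46005 genes. Its exons equal those of the table for 8 of the 10 members, Cyp2c54 and Cyp2c69 differing in some exons.

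Counts were filtered with filterByExpr (minimum count 10, minimum total 15), which left 13278 genes, scaled by TMM and tested with edgeR 4.0.16 (quasi-likelihood F test) in R 4.3.3. Benjamini-Hochberg adjustment ran over all genes tested. Standard errors were derived from the log2 fold change and its F statistic. Normalized counts are counts divided by the TMM library size relative to its mean. The common biological coefficient of variation was 0.256, and genes with few counts are measured with little precision. Permutation tests were exact (scipy 1.17.1). Ratios used a pseudocount of 1.

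Coding and upstream sequences were aligned with Biopython 1.88. Nearest pairs were planned by protein identity and were taken by coding sequence identity instead, since protein sequences were not used here. Named genes were all members, other Cyp2c genes with counts, Foxo1, of each list the called genes, those with an adjusted P under 0.05 or otherwise the 2 with the smallest P, and for the lowest and highest log2 fold change the 3 most correlated genes. Hepatocyte and sex-linked genes of the label checks, and the markers given, were added. The members and lists were chosen with earlier results of these data known.

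Alternatives were DESeq2 1.42.0, its size factors in edgeR, upper-quartile scaling, no filter, a minimum of 10 counts in each mouse, limma-voom (limma 3.58.1), the robust option, the adjusted P alone, a pseudocount of 10, library totals for RPKM, and leaving out each mouse. Leaving out mice in the fit without the filter, for Cyp2c69, was added after seeing the data. Tests were checked on simulated counts. Values were tabulated in pandas 2.3.3 with numpy 2.4.6, and figures were drawn in matplotlib 3.10.9.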

Additional observations from a re-analysis of the deposited data

Results flagged for a closer look

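Of the 20 sets of 4 mice (10 members in each genotype), 3 held a mouse far from the other mice of its group, with a gap to the nearest mouse above Dixon's 95% critical value for the share of the range of the group. Chance gives this in about 1 of 20 sets when values are normal and sets independent. Here the sets share the same mice and the counts were not logged, so that rate may not apply. Cyp2c39 had 931 normalized counts in MøFoxO1-KO replicate 29, with a gap of 0.983 of the range. Cyp2c40 had 118 in WT replicate 25, with a gap of 0.950 of the range, and Cyp2c69 had 99.6 in the same mouse, with a gap of 0.876. The coding sequences of Cyp2c40 and Cyp2c69 match at 92.4% of bases.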

How the results depend on the processing

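Cyp2c38 was called lower under every one of 15 alternative settings, mice left out included. The number of members called was 2 with DESeq2 and 2 without the filter on low counts, and 1 under the others. The number of genes called, 25, was 144 with DESeq2, 120 without the filter, 13 with limma-voom and 39 at the adjusted P alone, and with 1 mouse left out between 3 (WT replicate 25 omitted) and 82 (MøFoxO1-KO replicate 28 omitted). It was 15 when WT replicate 22 was omitted, and 9, 7 and 13 for MøFoxO1-KO replicates 26, 27 and 29. The cause was not tested. Of the log2 fold changes of members under alternatives, 134 kept their direction and side of the threshold, 5 passed it newly (Cyp2c40 and Cyp2c69, given above) and 3, all of Cyp2c29, changed sign (-0.219 to 0.21 with mice left out). With mice left out, the difference in log2 ratio ranged from -0.164 to 0.087 for Cyp2c37 over Cyp2c50, from -0.559 to 0.038 for Cyp2c50 over Cyp2c70, from 0.029 (without WT replicate 23) to 2.25 (without MøFoxO1-KO replicate 29) for Cyp2c38 over Cyp2c39, from 0.138 to 1.19 for Cyp2c40 over Cyp2c69, from 2.135 to 4.62 for Cyp2c29 over Cyp2c39, from -0.751 to -0.449 for Cyp2c50 over Cyp2c54, and from 2.49 to 4.16 for Cyp2c67 over Cyp2c69, where 3 mice against 4 allow no P under 0.0571 (exact permutation test). At a pseudocount of 10 the difference for Cyp2c40 over Cyp2c69 was -0.305, and that for Cyp2c67 over Cyp2c69 was 1.80, against 3.50. The median of the Cyp2j list was 0.46 without WT replicate 25, against 0.12. No paired analysis was possible because the replicate numbers of the 2 groups are not shared. Values at or under the lowest counts, as in Cyp2c69, are limited by depth.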
